A study of Homo sapiens with 9 samples.

Results

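Cell-cell adhesion genes were described in U251 glioblastoma cells with and without knockdown of the RNA-binding protein MSI1 (Musashi1). The list held 47 genes: cadherins and catenins, protocadherins, tight junction, gap junction, nectin and desmosome genes, and adhesion genes of the immunoglobulin (Ig) type. Of these, 46 of the 20848 genes in the gene count tables were found by symbol, and OCLN was not analysed here. U251 is an established human glioblastoma line. RNA-seq covered 3 control samples (wild-type U251) and 3 knockdown samples (U251 Msi1 KD), and MSI1 iCLIP, which maps crosslinks of a protein to RNA at single nucleotides, covered 3 samples of wild-type U251. The labels do not give the method of the knockdown, what the control cells received, or whether replicates were separate cultures, so the p-values cover the spread of these samples alone, and that spread could be technical.

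As background, classical cadherins are calcium-dependent receptors that bind the same kind of cadherin on a neighbouring cell, and catenins tie their cytoplasmic tails to actin. Protocadherins are a large, mostly neural branch of the cadherin superfamily. Claudins, ZO and JAM proteins build tight junctions, connexins form gap junction channels, nectins and afadin help to assemble adherens junctions, and desmosomal cadherins, desmoplakin and plakophilins anchor intermediate filaments. Ig-type adhesion molecules such as NCAM, L1 and ALCAM are prominent in the nervous system. MSI1 is a neural stem cell protein that binds mainly 3′ untranslated regions (3′ UTRs) and prefers a UAG core.

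The knocked-down gene was examined first. MSI1 stood at 16.1, 17.7 and 7.59 CPM (normalised counts, scaled to the library total) in control replicates 1, 2 and 3 and at 3.15, 5.11 and 2.26 CPM in knockdown replicates 1, 2 and 3. All knockdown libraries lay below all control libraries. The log2 fold change, knockdown over control here and throughout, was -1.97 (SE 0.42, adjusted p = 0.0699 in edgeR's quasi-likelihood test), and the adjusted p was 0.00279 in the paired fit, which adds the replicate number as a block. The titles number the replicates and state no pairing, so that fit rests on an assumption. Without control replicate 3 the log2 fold change of MSI1 was -2.21 (adjusted p = 0.000372). Glioma and astroglia markers summed to 6900 to 8080 CPM in control and 6500 to 7520 CPM in knockdown libraries, mostly CD44 and VIM among the 11 genes, with OLIG2 at 0. Of the 9 tested, SOX2 fell without the block (log2 -0.76, SE 0.13, adjusted p = 0.0432), and the paired fit called it lower and 3 others higher. The 8 epithelial markers summed to 4.22 to 6.69 CPM and 3.75 to 3.88 CPM with KRT14 at 0, and 1 of 3 tested was lower in the paired fit. The 5 fibroblast markers summed to 1000 to 1430 CPM and 1120 to 1600 CPM, mostly COL1A2, with 2 of 3 tested genes higher in the paired fit (COL1A1 and PDGFRB), the 4 neuron markers to 20.6 to 30.4 CPM and 26 to 31.4 CPM, mostly SYT1, with STMN2 at 0 and SNAP25 higher in that fit, and the 4 oligodendrocyte markers to 1.12 to 1.7 CPM and 1.48 to 2.28 CPM with MAG and OPALIN at 0. The part of these markers in the results below was not tested.

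Total gene counts ran from 32919299 to 47277016 per library. Control replicate 3 was unlike the rest: its score on principal component 1 (62.5% of the variance) was 80.6, and the other scores lay between -40.9 and 10.4. Its deviation from control replicates 1 and 2 followed the GC content of the transcripts. Pearson's r was -0.86 across 12980 genes and -0.85 across 44 adhesion genes (genes share these libraries, so r is a description). GC-rich adhesion genes were low in that library, as in CDH4 (59.0% GC, log2 difference -1.51) and JUP (61.5% GC, -1.38), and several AT-rich ones were high, as in DSC2 (38.9% GC, 0.80) and CLDN12 (38.1% GC, 0.75). Exceptions were PCDH10 (41.9% GC, -0.58), PCDH7 (41.5% GC, -0.16), and CDH6 and NRCAM (0.04 each). Results are therefore given also without control replicate 3 and with a GC offset, a fit chosen after seeing the data in which each library's trend on GC content is removed.

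**Figure D1:**
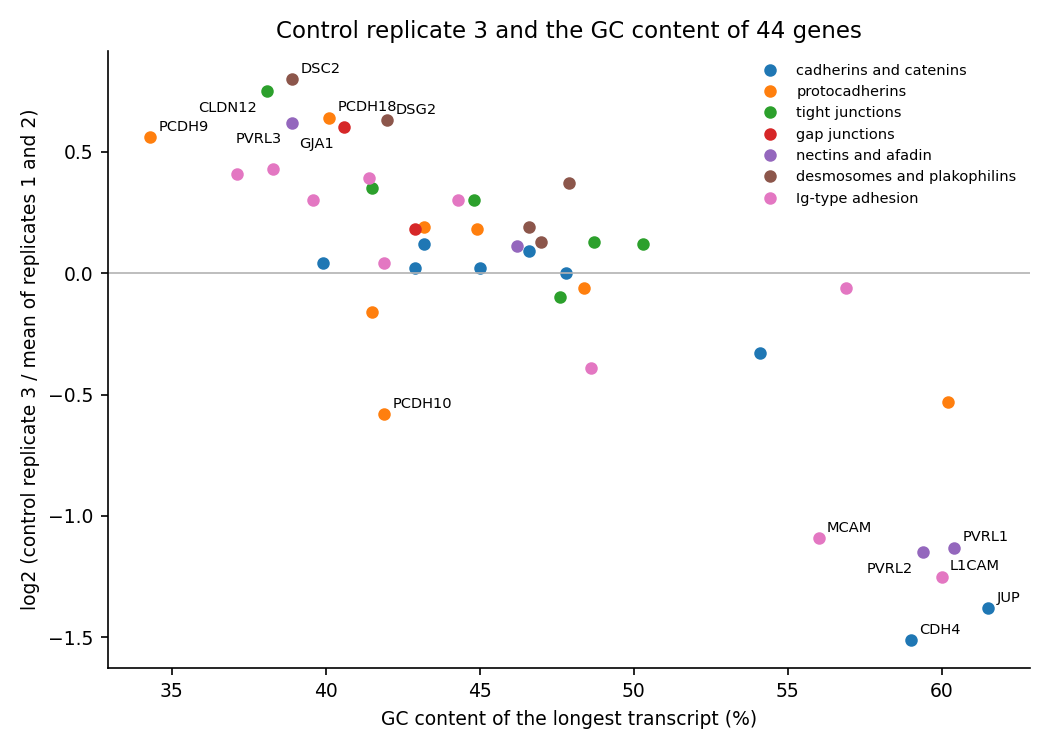
GC content of the longest coding transcript (x axis, percent) against the log2 ratio of control replicate 3 to the mean of control replicates 1 and 2 (y axis) for 44 adhesion genes, 1 point per gene, coloured by class. Genes at 56.0% GC and above such as MCAM, PVRL1, PVRL2, L1CAM, JUP and CDH4 lie below -1 and DSC2, CLDN12 and DSG2 lie above 0.6, while ICAM1 and PCDH1 are GC-rich genes with smaller shifts.

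Of the 46 genes, 44 passed the filter on low counts. CDH1, the epithelial E-cadherin, had 0, 4 and 11 reads in control and 0, 4 and 2 reads in knockdown libraries, and PCDHB5 had 24, 7 and 1 against 15, 6 and 7 reads, so neither was tested. After MSI1 knockdown NEGR1 rose and PCDH20 and CADM1 fell. These were the 3 adhesion genes past an adjusted p of 0.05 without the block, 1 of 44 higher (0.772% of all 13856 tested genes were called higher) and 2 of 44 lower (0.902% of all genes). In the paired fit 12 of 44 were called higher (27.3%, against 7.04% of all genes) and 9 of 44 lower (20.5%, against 10.3%), and the 3 genes above were among them. With the GC offset 13 of 44 were called higher (29.5%, against 10.4% of all genes) and 6 of 44 lower (13.6%, against 10.6%), and 18 of these 19 genes were also called in the paired fit. With GC offset and block together 17 of 44 were called higher (38.6%, against 20.2% of all genes) and 10 of 44 lower (22.7%, against 20.4%). These were the 21 genes of the paired fit and 6 more: CDH11, JUP, TJP1, GJA1 and VCAM1 higher and PCDH9 lower. All 3 knockdown libraries lay above all 3 controls in 9 of 44 genes (20.5%, against 8.73% of all genes) and below them in 10 of 44 (22.7%, against 14.1%). The list was chosen with earlier results of these data known, so larger shares than in all genes may come from that choice. They are a description and no test of the adhesion genes as a set. The median log2 fold change was 0.01 over the 44 genes and -0.04 over all tested genes, and 23 of the 44 values were above 0. Without control replicate 3 the count of called adhesion genes was 9 of 45 tested, and over all genes 1028 of 14067. The 9 were CDH6, PCDH18, CLDN1, CLDN12, DSC2 and NEGR1 higher and PCDH20, PKP2 and CADM1 lower. Without control replicate 1 the adhesion count was 1 (PCDH20), and without control replicate 2 or any 1 knockdown library it was 0. Over all genes only 10 and 9 were called without control replicates 1 and 2, and 0, 4 and 4 without knockdown replicates 1, 2 and 3. In bulk RNA, fewer cells expressing a gene and less RNA per cell cannot be told apart.

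**Figure D2:**
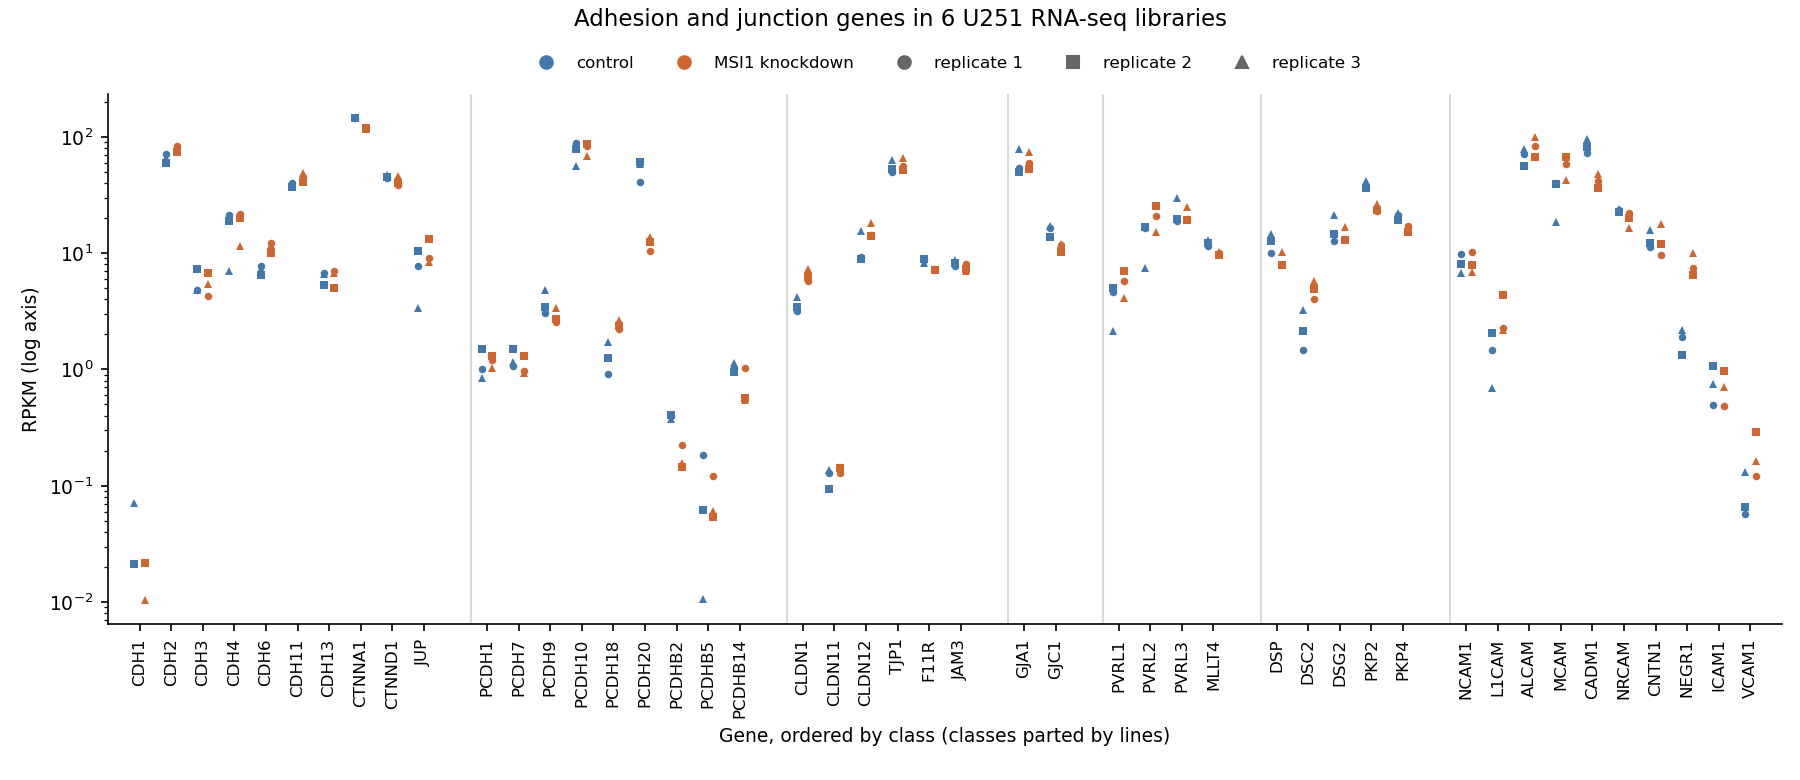
RPKM (CPM per kilobase of exon, log axis) of the 46 adhesion genes in each of 6 libraries, controls in blue and knockdown in orange, with marker shapes for replicates; libraries at 0 are not drawn. CTNNA1 has the highest level, and PCDH20 and NEGR1 are the genes whose control and knockdown points lie farthest apart.

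**Figure D3:**
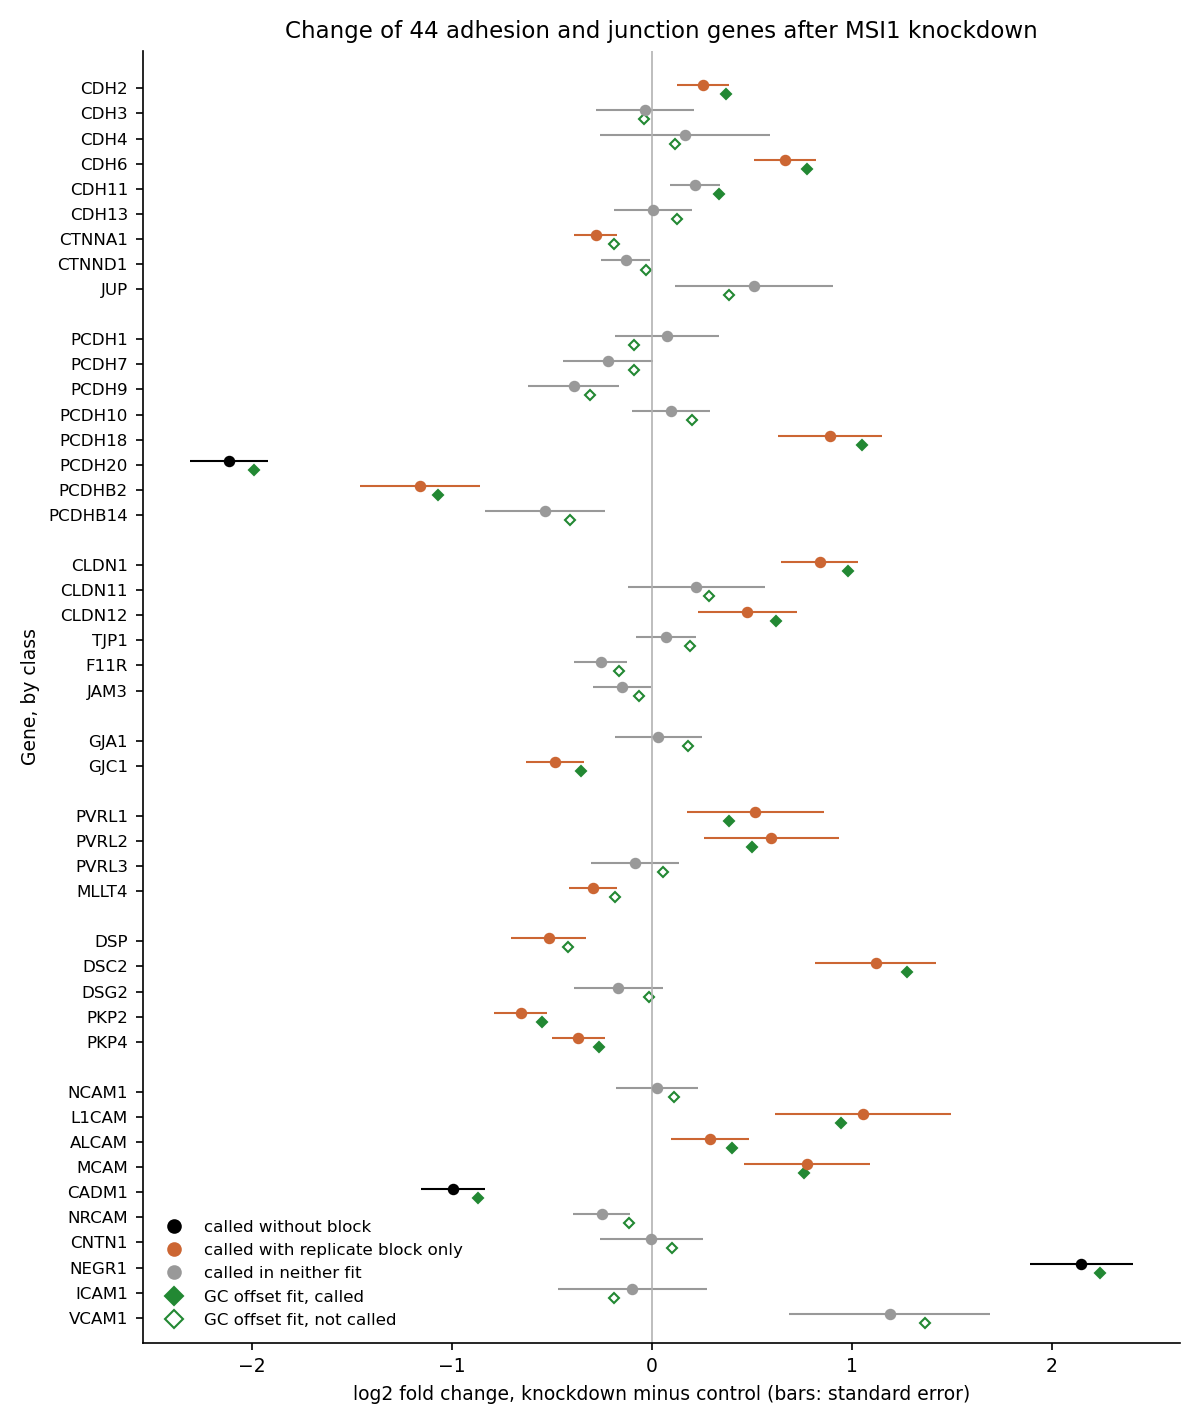
Log2 fold change (x axis) of the 44 tested genes by class (y axis), where circles with standard error bars are the fit without the block and diamonds the fit with the GC offset. PCDH20 at -2.12 and NEGR1 at 2.15 are the extremes, and coloured circles show which genes were called without the block or only with it.

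The 3′ UTRs of all 44 tested adhesion genes were searched for a pair of 7-base words that an earlier search of these same libraries had found among lower and higher genes, so the words give no independent evidence here. The windows below come from GENCODE release 29 transcripts (GRCh38, transcript strand), with the word in capitals and 10 bases on each side, and show the first match in 8 genes chosen among called ones that hold the word. PCDHB2, PKP2, DSP and the other genes called lower in the paired fit and not shown hold no GCAGGAA. L1CAM, MCAM and CDH2 among those called higher in that fit hold no TACATTT. The first group holds GCAGGAA and the second TACATTT.
PCDH20, lower, chr13:61410854-61410880, minus strand: ctgctcctttGCAGGAAactggggtat
CADM1, lower, chr11:115170054-115170080, minus strand: gctgttaccaGCAGGAAgtccatcctg
GJC1, lower in the paired fit, chr17:44804102-44804128, minus strand: ctctcatattGCAGGAAcgatttcaga
NEGR1, higher, chr1:71405964-71405990, minus strand: gaagcaaaacTACATTTttgaaggaaa
DSC2, higher in the paired fit, chr18:31067739-31067765, minus strand: ccttatttgtTACATTTgggtataatg
PCDH18, higher in the paired fit, chr4:137520816-137520842, minus strand: attttaaaaaTACATTTgtaccttata
CLDN1, higher in the paired fit, chr3:190307573-190307599, minus strand: tttcatagccTACATTTtagtttctaa
CDH6, higher in the paired fit, chr5:31323651-31323677, plus strand: gccctaactgTACATTTcacaggctaa

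GCAGGAA (transcript strand only) occurred in the 3′ UTR of 10 of 44 adhesion genes (22.7%) and of 16.9% of 12715 tested genes with a 3′ UTR of at least 100 bases. Among adhesion genes lower in the paired fit it occurred in 3 of 9 (PCDH20, GJC1 and CADM1), against 30.7% of all genes lower in that fit, and among the higher ones in 1 of 12 (ALCAM), against 13.3%. TACATTT occurred in 25 of 44 (56.8%) against 27.9% of tested genes. It was found in 9 of the 12 higher genes (75.0%, against 52.6% of all genes higher in that fit). It was also in 3 of the 9 lower ones (CADM1, GJC1 and PKP2, 33.3% against 31.4%). Of the 23 genes not called in that fit 13 held it (56.5%, against 25.3%). NEGR1 held 7 copies in 11506 bases and PCDH9 7 copies in 24327 bases. PCDH9 was not called in the paired fit but was called lower with GC offset and block together. It also held 2 copies of GCAGGAA. Length is shared by these counts: the median 3′ UTR was 2274 bases in the adhesion genes and 1466 bases in all, and the shares for GCAGGAA and TACATTT were 30.3% and 50.3% among all genes with at least 2000 bases, and 42.9% and 64.7% among those with at least 4000. The UAG core, searched as TAG, occurred at a median of 12 per kilobase in adhesion genes and 11.3 per kilobase in all.

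Among cadherins and catenins, 9 of 10 genes were tested and none was called without the block. The paired fit called CDH2 and CDH6 higher and CTNNA1 lower, and the class median log2 fold change was 0.16. CTNNA1, alpha-catenin, which links cadherin complexes to actin, had the highest level of all 46 genes (145.5 ± 0.4 RPKM in control, SD, n = 3). Its CPM was 549, 547 and 546 in control and 459, 450 and 441 in knockdown replicates 1, 2 and 3. The groups did not overlap, and both were narrow, yet the difference was small (log2 -0.28, SE 0.11, adjusted p = 0.26, paired 0.0317). With the GC offset the adjusted p of CTNNA1 was 0.076, and with GC offset and block together 0.00615.

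CDH2, the N-cadherin of neural and mesenchymal cells, was the most abundant cadherin on the RPKM scale (65.7 ± 6.2 in control, SD, n = 3). It measured 313, 259 and 290 CPM in control and 367, 321 and 339 CPM in knockdown libraries. Every knockdown library lay above every control (log2 0.25, SE 0.13, adjusted p = 0.42, paired 0.0465, GC offset 0.0287). CDH6, a type II cadherin of kidney and neural crest, measured 34.8, 29.1 and 32.9 CPM in control and 55, 45.2 and 53.2 CPM in knockdown libraries, again without overlap. Its log2 fold change was 0.66 (SE 0.16, adjusted p = 0.088, paired 0.00792), and the adjusted p was 0.0175 without control replicate 3. CDH11, another mesenchymal type II cadherin, had a log2 fold change of 0.22 and was called with the GC offset (adjusted p = 0.0391) and not in the paired fit (0.103).

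The other tested genes of the class were not called without the block, in the paired fit or with the GC offset: CDH3 (P-cadherin), CDH4 (R-cadherin), CDH13 (T-cadherin, which is anchored by a lipid), CTNND1 (p120-catenin) and JUP (plakoglobin). Their log2 fold changes ran from -0.13 in CTNND1 to 0.51 in JUP. JUP and CDH4 are the GC-rich genes that were low in control replicate 3. JUP measured 27.3, 36.4 and 11.9 CPM in control and 31.7, 46.5 and 29.4 CPM in knockdown libraries, and its log2 fold change was 0.23 without control replicate 3. It was called with GC offset and block together (log2 0.38, adjusted p = 0.00345). CDH4 measured 65.5, 57.7 and 21.3 CPM against 66.2, 60.8 and 34.9 CPM, and its log2 fold change went from 0.16 to -0.13 without that library.

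Of 9 protocadherins 8 were tested, with a class median log2 fold change of -0.31. PCDH20 fell without the block, PCDHB2 was called lower and PCDH18 higher in the paired fit. PCDH20 (chr13:60881820-60887656, hg18, minus strand, 2 exons) measured 197, 287 and 277 CPM in control and 49.6, 60.0 and 66.1 CPM in knockdown libraries. The highest knockdown library was far below the lowest control. Its log2 fold change was -2.12 (SE 0.20, adjusted p = 0.00873, paired 0.000604), the largest decrease among the 44 genes, and its RPKM went from 53.1 ± 10.4 to 12.3 ± 1.7 (SD, n = 3 each). When each library was left out in turn, the log2 fold change of PCDH20 stayed between -2.27 and -1.94 and its adjusted p between 6.63e-05 and 0.08, below 0.05 in 2 of 6 fits, those without control replicate 1 or 3.

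PCDH18 was a low-level gene, at 5.39, 7.41 and 10.3 CPM in control and 13.1, 14 and 15.7 CPM in knockdown libraries. All knockdown libraries lay above all controls (log2 0.89, SE 0.26, adjusted p = 0.151, paired 0.0174). Its highest control was replicate 3, and without it the log2 fold change was 1.22 (adjusted p = 0.00397). PCDHB2, of the clustered beta protocadherins on chromosome 5, measured 1.08, 1.11 and 1.03 CPM in control and 0.61, 0.39 and 0.43 CPM in knockdown libraries. That is 33 to 49 reads against 15 to 26 reads, and the groups did not overlap (log2 -1.16, SE 0.30, adjusted p = 0.11, paired 0.0433). Beta protocadherins are related genes without introns, so reads from stretches they share may have been split between them. The values of PCDHB2, PCDHB5 and PCDHB14 are therefore uncertain.

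PCDH10 was the most abundant protocadherin (74.8 ± 16.7 RPKM in control, SD, n = 3). Its CPM was 519, 462 and 329 in control and 490, 508 and 400 in knockdown libraries, with overlapping groups and a log2 fold change of 0.09 (SE 0.19, adjusted p = 0.89, paired 0.416). PCDH10 was the only protocadherin with a higher control RPKM than PCDH20. PCDH1, PCDH7, PCDH9 and PCDHB14 were not called in the paired fit or with the GC offset either, with log2 fold changes from -0.54 in PCDHB14 to 0.07 in PCDH1. With both together PCDH9 was called lower (log2 -0.31, adjusted p = 0.00884).

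The 6 tight junction genes had a median log2 fold change of 0.15. None was called without the block, and the paired fit called CLDN1 and CLDN12 higher. CLDN1, a claudin of epithelial barriers, measured 10.8, 11.8 and 14.5 CPM in control and 19.7, 21.4 and 25.2 CPM in knockdown libraries. The groups did not overlap, and the log2 fold change was 0.84 (SE 0.19, adjusted p = 0.0817, paired 0.00715), or 1.03 without control replicate 3 (adjusted p = 0.00512). CLDN12, a claudin without a PDZ-binding tail, measured 32.2, 30.8 and 53.3 CPM against 49.9, 48.7 and 62.9 CPM. Control replicate 3 overlapped the knockdown libraries, and without it the log2 fold change was 0.84 (adjusted p = 0.0102) in place of 0.48 (SE 0.25, adjusted p = 0.433, paired 0.0354).

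TJP1 (ZO-1), the scaffold under claudins, was the most abundant of the class (55.3 ± 6.9 RPKM in control, SD, n = 3). It measured 360, 376 and 453 CPM in control and 400, 375 and 473 CPM in knockdown libraries, which overlapped (log2 0.07, SE 0.15, adjusted p = 0.892, paired 0.503). With GC offset and block together TJP1 was called higher (log2 0.19, adjusted p = 0.0116). F11R (JAM-A) and JAM3, Ig-type receptors of tight junctions, had log2 fold changes of -0.26 and -0.15, and CLDN11, a myelin claudin, was near the detection limit at 10 to 16 reads. None of these 3 was called. The epithelial marker sums were low (4.22 to 6.69 CPM in control and 3.75 to 3.88 CPM in knockdown libraries), and their part in the CLDN1 value was not tested.

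Both gap junction genes were tested. GJC1 (connexin 45) measured 129, 108 and 134 CPM in control and 91.5, 80.0 and 94.1 CPM in knockdown libraries, without overlap. Its log2 fold change was -0.49 (SE 0.14, adjusted p = 0.157), and it was called lower in the paired fit (0.0107) and with the GC offset (0.0173). GJA1 (connexin 43), the main connexin of astrocytes, stood at 60.8 ± 15.7 RPKM in control (SD, n = 3). Its CPM was 169, 155 and 246 in control and 185, 165 and 233 in knockdown libraries, so the spread between replicates was wider than the difference (log2 0.03, SE 0.22, adjusted p = 0.972, paired 0.698). With GC offset and block together GJA1 was called higher (log2 0.18, adjusted p = 0.0102).

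Among nectins and afadin, 4 genes were tested and none was called without the block. PVRL1 and PVRL2, the genes of nectin family receptors, were called higher in the paired fit, and MLLT4, afadin, which links nectins to actin, was called lower. PVRL1 measured 28.3, 30.4 and 13.2 CPM in control and 34.9, 42.6 and 25.4 CPM in knockdown libraries. PVRL2 measured 58.4, 60.4 and 26.5 CPM against 74.2, 91.1 and 54.5 CPM. Both are GC-rich (60.4% and 59.4%), control replicate 3 was their lowest library, and the groups overlapped, although each knockdown library lay above the control of the same number. Their log2 fold changes were 0.52 (SE 0.34, adjusted p = 0.559, paired 0.0466) and 0.60 (SE 0.34, adjusted p = 0.481, paired 0.0314). Without knockdown replicate 2 PVRL1 was at 0.33 (adjusted p = 0.96). Without control replicate 3 the log2 fold changes of PVRL1 and PVRL2 were 0.28 and 0.36, with adjusted p of 0.507 and 0.343, and with the GC offset the adjusted p was 0.00954 and 0.00242.

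MLLT4 measured 119, 127 and 133 CPM in control and 104, 99.6 and 105 CPM in knockdown libraries. The groups did not overlap, with a log2 fold change of -0.29 (SE 0.12, adjusted p = 0.293, paired 0.0472, GC offset 0.0844, GC offset and block 0.0139). Without control replicate 3 it was -0.20 (adjusted p = 0.517). PVRL3, the most abundant nectin gene by RPKM (22.6 ± 6.0 in control, SD, n = 3), measured 31.0, 32.2 and 48.8 CPM against 32.7, 32.1 and 40.7 CPM and was not called (log2 -0.08, SE 0.22, adjusted p = 0.914, paired 0.715).

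The 5 desmosome and plakophilin genes had a class median of -0.37, with PKP2, PKP4 and DSP called lower and DSC2 called higher in the paired fit and none without the block. PKP2, a plakophilin that joins desmosomal cadherins to desmoplakin, was the most abundant (38.5 ± 3.1 RPKM in control, SD, n = 3). It measured 164, 162 and 186 CPM in control and 102, 105 and 118 CPM in knockdown libraries, with a clear gap between groups. The log2 fold change was -0.66 (SE 0.13, adjusted p = 0.0623, paired 0.00403, GC offset 0.00092), and the adjusted p was 0.0441 without control replicate 3. PKP4, an armadillo protein of adherens junctions and desmosomes, measured 98.6, 88.1 and 102 CPM against 78.8, 70.4 and 74.3 CPM, without overlap (log2 -0.37, SE 0.13, adjusted p = 0.232, paired 0.0292).

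DSP, desmoplakin, measured 96.8, 123 and 142 CPM in control and 76.4, 77.5 and 98.6 CPM in knockdown libraries. Knockdown replicate 3 overlapped control replicate 1 (log2 -0.52, SE 0.19, adjusted p = 0.239, paired 0.0169, GC offset 0.07, GC offset and block 0.000798). Without control replicate 3 it was -0.32 (adjusted p = 0.351). DSC2, a desmosomal cadherin (desmocollin), went the other way, at 7.76, 11.2 and 16.9 CPM in control and 21.2, 26.0 and 30.4 CPM in knockdown libraries. Its groups did not overlap, and the log2 fold change was 1.12 (SE 0.30, adjusted p = 0.125, paired 0.0067), or 1.51 without control replicate 3 (adjusted p = 0.00131). DSG2, its desmoglein partner, was not called (log2 -0.17, paired adjusted p = 0.363).

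All 10 Ig-type adhesion genes were tested, and they held both the largest increase of the 44 genes and 1 of the 2 decreases called without the block. NEGR1, a lipid-anchored neuronal growth regulator of the IgLON family (chr1:71641213-72520865, hg18, minus strand, 7 exons), measured 10.8, 7.59 and 12.4 CPM in control and 42.1, 36.8 and 57.0 CPM in knockdown libraries. Every knockdown library was far above every control, and its RPKM went from 1.81 ± 0.43 to 7.99 ± 1.85 (SD, n = 3 each). The log2 fold change was 2.15 (SE 0.26, adjusted p = 0.0149, paired 0.000947). With each library left out in turn it stayed between 1.97 and 2.37, with adjusted p from 9.08e-05 to 0.102, below 0.05 in 1 of 6 fits, the one without control replicate 3.

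CADM1, a homophilic adhesion molecule of synapses and epithelia (chr11:114549555-114880451, hg18, minus strand, 10 exons), was the most abundant of the class (83.8 ± 11.3 RPKM in control, 42 ± 5.5 RPKM in knockdown, SD, n = 3 each). It measured 315, 356 and 412 CPM in control and 180, 158 and 205 CPM in knockdown libraries, without overlap. The log2 fold change was -1.0 (SE 0.16, adjusted p = 0.034, paired 0.00278). Leaving out each library gave -1.09 to -0.83 with adjusted p from 0.0063 to 0.25, and the call held in 1 of 6 such fits, the one without control replicate 3. With DESeq2 size factors in the edgeR fit its adjusted p was 0.0532.

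L1CAM, ALCAM and MCAM were called higher in the paired fit and with the GC offset, and not without them. MCAM (CD146), an adhesion molecule of melanoma and vessels, measured 133, 131 and 61.5 CPM in control and 193, 222 and 141 CPM in knockdown libraries. The lowest knockdown library was above the highest control, and control replicate 3 was the lowest of all (log2 0.77, SE 0.32, adjusted p = 0.299, paired 0.0123, GC offset 0.00359). L1CAM, a receptor of axon growth, measured 7.45, 10.3 and 3.46 CPM against 11.5, 21.7 and 11 CPM, also without overlap. Its log2 fold change was 1.06 (SE 0.44, adjusted p = 0.31, paired 0.0216, GC offset 0.01), or 0.78 without control replicate 3 (adjusted p = 0.134) and 0.67 without knockdown replicate 2 (adjusted p = 0.8). ALCAM (CD166) measured 339, 265 and 373 CPM in control and 398, 318 and 477 CPM in knockdown libraries. Its groups overlapped, but each knockdown library exceeded the control of the same number (log2 0.29, SE 0.20, adjusted p = 0.576, paired 0.0371). The log2 fold change of ALCAM was 0.16 without control replicate 2, 0.46 without control replicate 3 and 0.19 without knockdown replicate 3.

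NCAM1, NRCAM, CNTN1, ICAM1 and VCAM1 were not called without the block, in the paired fit or with the GC offset. NCAM1, the classical neural cell adhesion molecule, had a log2 fold change of 0.02 and NRCAM, an L1 relative, of -0.25. ICAM1 and VCAM1, the leukocyte ligands of activated endothelium, were at 1.57 to 3.5 CPM and 0.18 to 0.89 CPM, and the log2 fold change of VCAM1 was 1.19 (SE 0.50, adjusted p = 0.315) from 8 to 34 reads. With GC offset and block together VCAM1 was called (log2 1.31, adjusted p = 0.0368). The endothelial markers summed to 13.4 to 14.6 CPM in control and 22.1 to 25.5 CPM in knockdown libraries, mostly KDR, with 1 of the 2 tested genes called in the paired fit. Their part in the MCAM and ALCAM values was not tested.

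**Figure D4:**
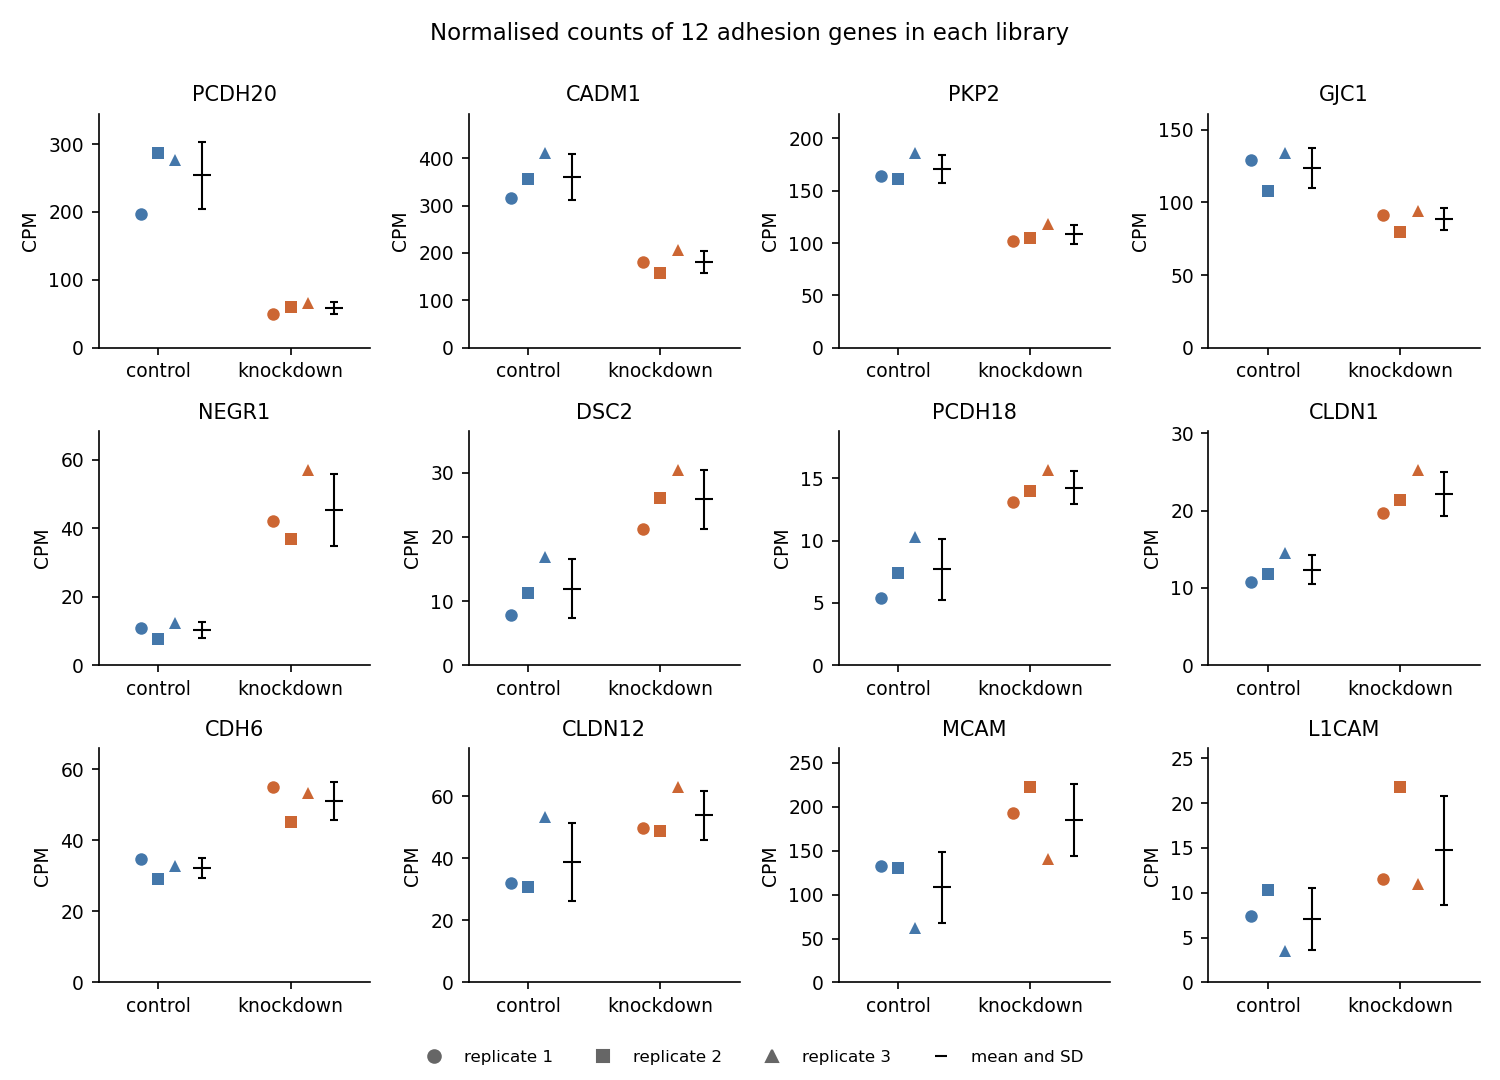
CPM (y axes from 0) of 12 adhesion genes in 3 control and 3 knockdown libraries, with the mean and SD beside the points. PCDH20, CADM1, PKP2 and GJC1 are lower in every knockdown library and NEGR1, DSC2, PCDH18, CLDN1, CDH6, MCAM and L1CAM higher in every one, while CLDN12 overlaps through control replicate 3.

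Related genes outside the list were counted by the same fits. Of all tested genes the paired fit called 7.04% higher and 10.3% lower, and the fit without the block 0.772% and 0.902%. The counts below are to be read beside these shares, and no excess over them was tested. Of 22 tested other cadherins, catenins and linkers, none was called without the block and the paired fit called 3 higher and 3 lower, among them VCL, vinculin, which binds stretched alpha-catenin (log2 0.52, SE 0.12, paired adjusted p = 0.00746). Among 17 other protocadherins the paired fit called 2 higher and none lower, led by PCDHGC3 (log2 0.51, SE 0.41, paired adjusted p = 0.0253), whose exons belong to a cluster that shares sequence, so its value is uncertain. Of 27 other tight and gap junction genes, CGNL1 (paracingulin) rose without the block (log2 1.30, SE 0.19, adjusted p = 0.0276), from 22.5, 18.5 and 16.1 CPM to 48.8, 51.6 and 40.1 CPM, and the paired fit called 3 higher and 1 lower. None of 10 other desmosome and nectin genes was called in either fit. The paired fit called 3 of 19 other Ig-type genes higher and 1 lower, led by LSAMP, an IgLON relative of NEGR1 (log2 1.02, SE 0.22, paired adjusted p = 0.0117). Among 10 tested transcription factors of cadherin switching it called 1 higher and 2 lower, led by TCF4, an E-protein that can repress E-cadherin (log2 -0.70, SE 0.14, paired adjusted p = 0.00832).

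Exon counts were used to ask whether splicing of these genes changed. Of 123109 tested exons 0% were called by edgeR's diffSpliceDGE, and none of 485 exons in 39 adhesion genes. At an unadjusted p below 0.05 were 263 exons in all (0.214%) and 2 adhesion exons. That share lies far below the 0.05 expected with no change, so the test was conservative on these data. Its lack of calls does not show that splicing was unchanged. In the limma fits named below the share was 1.9% without the block and 4.93% with it. The paired fit called 10 exons in all and none of the adhesion genes, and limma on exon ratios, an alternative chosen after seeing the data, called none with or without the block. The lowest p among adhesion exons belonged to the last of 4 exons of PCDH7 (chr4:30753193-30757521, hg18, 4329 nucleotides). That exon took 42.5, 34.2 and 51.4% of the gene's exon counts in control and 28.5, 17.7 and 23.3% in knockdown libraries (unadjusted p = 0.0204). Exon 3 of 7 of NEGR1 (126 nucleotides) took 7.57, 6.81 and 8.66% against 5.10, 3.79 and 4.31%. Neither pair of groups overlapped, but the adjusted p was 1 for both, and 0.794 for the PCDH7 exon in the paired fit. The next lowest were the first exon of MLLT4, exon 20 of 28 of TJP1 (240 nucleotides, 1.73, 1.73 and 1.6% against 2.09, 2.62 and 2.42%) and the first exon of JAM3, each at an adjusted p of 1.

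MSI1 iCLIP sites were then counted in the same genes. The 3 lists held 1746795, 145718 and 208722 sites, of which adhesion genes took 22112, 1435 and 2089 (1.27, 0.985 and 1.00%), and 44, 37 and 41 of the 46 genes had a site (95.7, 80.4 and 89.1%). Of all 20848 genes 77, 56.8 and 61.4% had one, without matching for RNA level or length. CDH4 alone carried 11461, 298 and 585 sites, the third, 19th and ninth highest count among all genes. Of its sense sites 94.8, 96.6 and 95.4% lay in intron 2, which spans 488.6 kilobases, and 44, 2 and 6 were exonic. By the count in replicate 1, CADM1 followed with 1964, 212 and 139 sites in replicates 1, 2 and 3, then CDH2 with 1167, 113 and 156, NCAM1 with 1071, 68 and 102, ALCAM with 777, 108 and 165, and CTNNA1 with 755, 62 and 107. The order differed in the other lists: in replicate 3 ALCAM and CDH2 exceeded CADM1, and in replicate 2 ALCAM and NEGR1 (78) exceeded NCAM1. Site counts were not corrected for gene length or RNA level, and both differ between these genes. No control antibody or input list was used here.

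Exons held 6.84, 13.9 and 14.9% of sense sites in adhesion genes and 14.1, 20.4 and 26.4% in all genes. CDH4 alone gave 11454, 297 and 583 of the adhesion sense sites, of which 44, 2 and 6 were exonic. This 1 gene lowers the adhesion shares, so they do not describe the adhesion genes as a class. How much of the gap to all genes it makes up in each list was not computed. Exonic density exceeded intronic density in every list in CADM1, CDH2, NCAM1, ALCAM and CTNNA1, as in CADM1 (37.1 exonic and 5.51 intronic sites per kilobase in replicate 1, 7.89 and 0.51 in replicate 2, 4.88 and 0.33 in replicate 3). In CADM1 the last exon held 141 of 160, 34 of 34 and 21 of 21 exonic sites. PCDH20 had 60, 7 and 12 sites, all in its last exon, and NEGR1 314, 78 and 73, of which 7, 4 and 3 were exonic. All 3 genes called without the block had last-exon sites in every list, with 7, 4 and 3 in NEGR1. The control level of NEGR1 (10.2 CPM) was far below that of PCDH20 (254 CPM) and CADM1 (361 CPM). Last-exon sites in every list were not particular to called genes. Uncalled genes had them too, as in NCAM1 (82, 8 and 15) and DSG2 (48, 8 and 12). Genes called higher in the paired fit ranged from 4 sites in replicate 1 and none in replicates 2 and 3 in PCDH18 to the counts of CDH2.

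**Figure D5:**
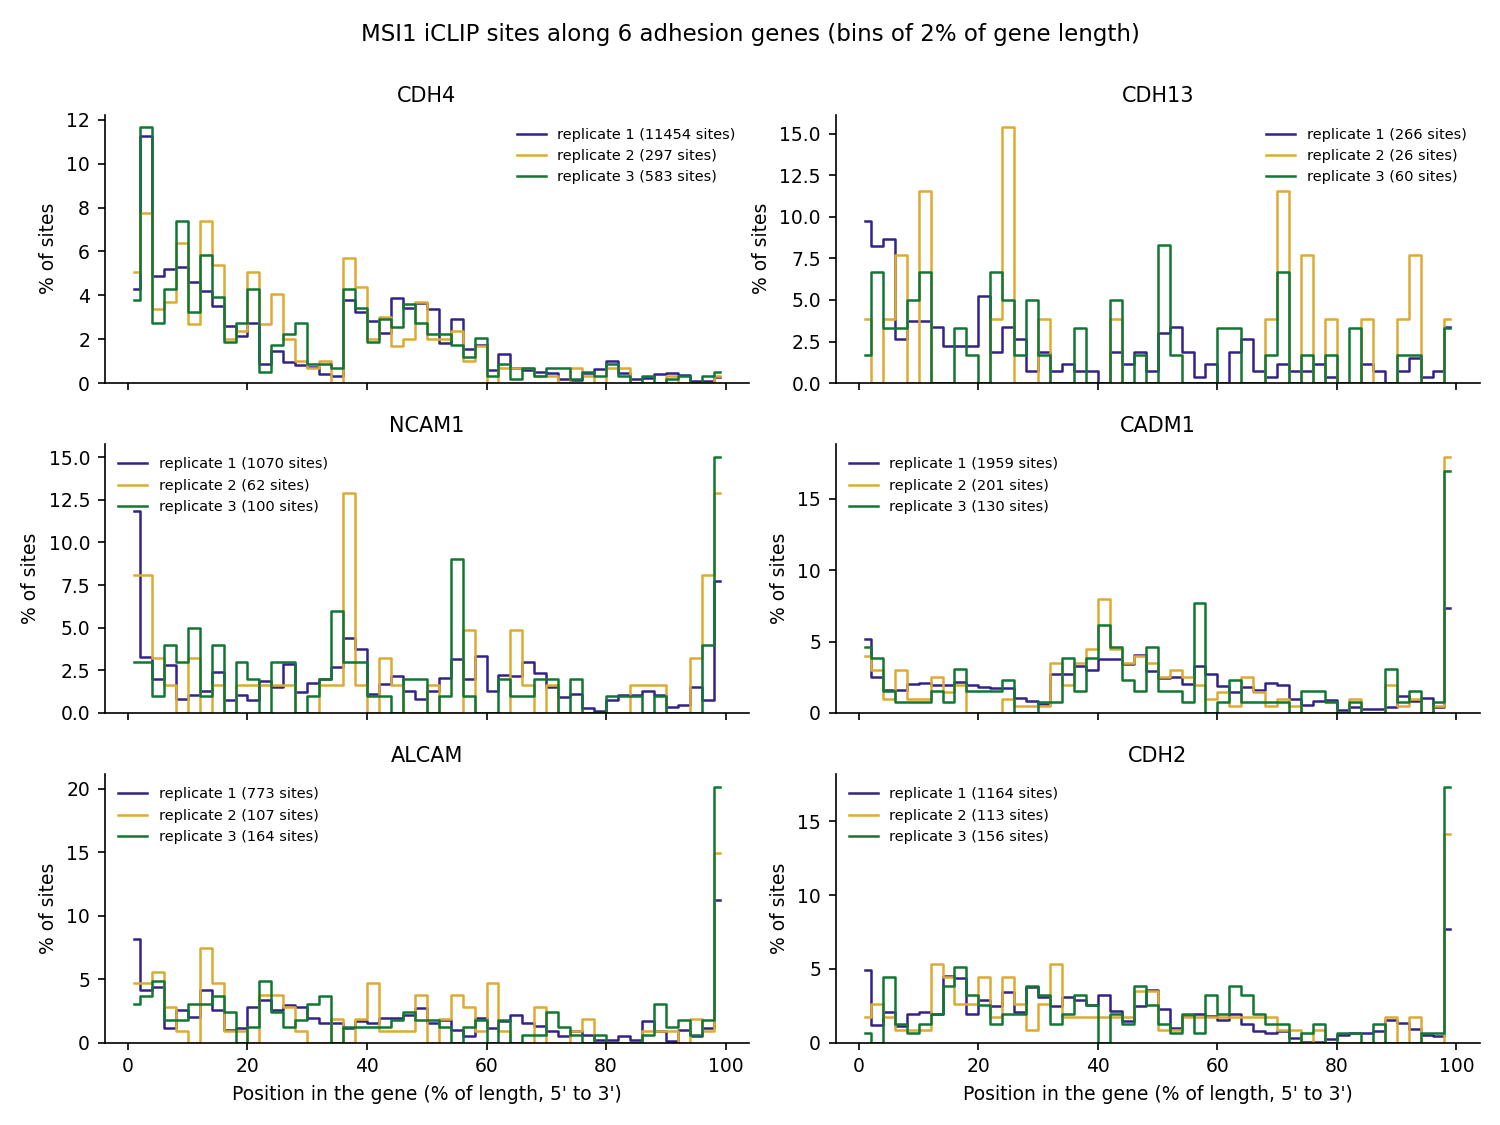
Share of each gene's sense iCLIP sites (y axis, percent) in 50 bins along the gene from 5′ to 3′ (x axis, percent of length) in the 3 iCLIP replicates for CDH4, CDH13, NCAM1, CADM1, ALCAM and CDH2. Sites of CDH4 lie mostly in the first part of the gene, within the long intron 2, and CADM1, ALCAM, CDH2 and NCAM1 have a peak in the last bin, while CDH13 has few sites in replicates 2 and 3.

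A site at the same nucleotide and strand in all 3 lists was found in 9 adhesion genes, 19 sites in all. Of tested genes 9.09% had such a site and of the 44 tested adhesion genes 8 (18.2%), and CDH1, which was not tested, is the ninth. These shares were not matched for gene length or RNA level. CDH13, NEGR1 and CDH4 span 1169.6, 879.7 and 684.7 kilobases, and CDH1 had 0 to 11 RNA reads per library. CDH13 had 5, CDH4 4, CADM1, CDH2 and ALCAM 2 each, and NEGR1, CDH1, CTNNA1 and GJA1 1 each. The exonic ones were all in last exons: CDH2 at chr18:23785441 and chr18:23785567 (hg18), ALCAM at chr3:106776998 and chr3:106777832, and GJA1 at chr6:121811133, the last with 13 to 126 sites in the whole gene. All 4 in CDH4 lay in intron 2, between chr20:59323485 and chr20:59397128. In CDH13 4 of the 5, in CADM1 1 of 2 and in CTNNA1 the only one were antisense to the gene, so they cannot be assigned to its transcript. In PCDH20 no position was shared by all 3 lists. The authors' p-value of these sites reached 1, and none of the 19 was below 0.05 in all lists.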

How the data were processed

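RNA-seq and iCLIP of U251 cells were used as deposited. The authors deposited raw read counts per gene and per exon, and iCLIP lists of single-nucleotide sites with a symbol and a value between 0 and 1 that was read as the authors' p-value, since the files have no header. Per the submitters' processing notes, coordinates are on hg18. Not given in the sources used here are the aligner, the counter, its strand setting and the site caller, so overlapping and antisense genes cannot be parted. No exon of an adhesion gene overlapped another gene's exon. The labels' protocol text is that of iCLIP and says that replicates were combined.

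Gene counts were fitted on all genes with edgeR 4.0.16 in R 4.3.3 (TMM, filterByExpr, group only, quasi-likelihood test, Benjamini-Hochberg over 13856 genes, threshold 0.05; 4 residual degrees of freedom, 2 with the block). Replicate numbers come from the titles. The correlation of same-numbered deviations was 0.32, 0.73 and 0.75, above the bound of 0.1, so the numbers were taken to pair the samples. However, the deviations of control replicate 1 were closer to those of knockdown replicate 2 (r = 0.49). Deviations were taken from group means, so these correlations are not independent. Against knockdown replicate 3, control replicates 1 and 2 stood at -0.69 and -0.61. The part of the GC shift of control replicate 3 in these values was not tested. Pairing therefore remains an assumption of the paired fit. CPM uses TMM factors, and RPKM divides it by the exonic length. Alternatives were DESeq2 1.42.0 and its size factors, other filters, each library left out, and, chosen after seeing the data, a GC offset (12980 genes matched to GENCODE 29 transcripts, 93.7%) and limma 3.58.1 on exon ratios (pseudocount 0.5). Exons were tested with diffSpliceDGE. The edgeR gene and exon tests and the site and word counts were checked on simulated data. The 47 genes, the related lists and the 3′ UTR words were chosen with earlier results of these data known. Every gene of the list was named by class, with values per library for genes called with or without the block and for the gene of highest RPKM of each class. Of each related list the genes called without the block were named, or else the lowest paired adjusted p, and of exons the 5 lowest p.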

Additional observations from a re-analysis of the deposited data

How the results depend on the processing

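The count of adhesion genes called was 3, and 2 with DESeq2 size factors (1 higher and 1 lower, in place of 1 and 2), 3 with no filter on low counts, 8 with DESeq2, 21 with the replicate block, 19 with size factors and block, 19 with the GC offset, 27 with GC offset and block, 17 with GC offset and no control replicate 3, and 0 to 9 with 1 library left out. Over all genes these counts were 232, 191, 202, 798, 2398, 2278, 2728, 5270 and 2683, and 0 to 1028 with 1 library left out, the highest without control replicate 3; size factors gave 107 higher and 84 lower in place of 107 and 125. The cause was not tested. For the 21 adhesion genes called with or without the block, no direction reversed in 294 values under 14 alternatives. These genes were selected by calls on the same libraries, and the fit with the block is 1 of the alternatives. Their stable direction is therefore no independent support. Some uncalled genes did change direction, as CDH4 and PVRL3 did without control replicate 3. No alternative called an exon of an adhesion gene. Adhesion genes with a shared iCLIP position numbered 9, then 32 when 2 lists were enough, 19 within 5 nucleotides, 0 among sites with the authors' p-value below 0.05, and 16 to 32 when 1 list was left out. Over all gene symbols in the lists the count was 1544, then 7316 with 2 lists and 73 below that p-value. With replicate 1, 2 or 3 left out it was 3484, 6028 and 3478. Within 5 nucleotides all genes were not counted. Depth limited CDH1, PCDHB5, CLDN11, PCDHB2 and VCAM1, and the small iCLIP lists of replicates 2 and 3.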
